A study of Sebastes schlegelii with 6 samples.

Results

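The genes described here copy DNA in dividing cells and supply the deoxynucleotides for it. They are the rows of the deposited count table whose pathway annotation holds the entry DNA replication, together with the rows whose symbol is that of a fixed set of nucleotide, licensing and proliferation genes. The entry gave 37 genes and the symbols 18, so 55 of the 19303 genes in the table are members; the symbol gmnn matched no row. They were measured by RNA sequencing of whole liver of a marine fish, the Korean rockfish Sebastes schlegelii, in 3 libraries from fish starved for 72 days and 3 libraries from fish fed for 72 days. By its title the study is about the response of this species to starvation stress. The labels name no strain, genotype, age or further treatment. Whether each library is a separate fish is not given, and p-values cover the spread among libraries, which may be technical.

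DNA replication starts at origins where CDC6 and CDT1 load a ring-shaped helicase of 6 MCM subunits, which CDC45 and the GINS complex then switch on. Polymerase alpha with its primase lays down primers, polymerases epsilon and delta extend the leading and lagging strands while held by the PCNA clamp, and flap endonuclease, RNase H enzymes and DNA ligase 1 finish the lagging strand. Ribonucleotide reductase, thymidylate synthase and thymidine kinase help to keep up the deoxynucleotide pool. These roles are known from yeast and mammals. In adult mammalian liver most hepatocytes are not dividing, and several of these enzymes also serve DNA repair or mitochondrial DNA.

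Total counts ranged from 13469708 to 14716282 in starved and from 11623356 to 13029074 in fed libraries. Hepatocyte markers such as apoa1, Fgb and Fgg were abundant in every library, with 17 marker genes summing to 152413 to 188827 CPM in starved and 134531 to 277762 CPM in fed liver. CPM is a gene's counts relative to the library's size; all CPM values given here are scaled by the trimmed mean of M-values (TMM), which makes libraries comparable for 1 gene but does not correct for gene length. Among the 6 libraries, fed replicate 1 differed most from the rest. Across genes its log2 CPM values correlated with fed replicates 2 and 3 at Pearson r = 0.891 and 0.876, against 0.951 between those 2 and 0.953 to 0.956 among the starved libraries. Its share of spliced reads was 41.7% of uniquely mapped reads, against 50.8% to 53.3% in the starved and 50.7% and 51.1% in the other fed libraries, and its TMM factor was the lowest at 0.743.

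The replication genes that fell in starved liver were rrm1 and a pair of rrm2 genes of ribonucleotide reductase, thymidylate synthase, 1 of the RPA1 genes, topoisomerase II alpha and Ki-67, by 6.89-fold or more. The rrm1 and rrm2 genes named here passed the filter on low counts only through the fed libraries. Such genes are bound to differ between the groups. The more abundant gene of the reductase's large subunit, Rrm1, did not pass. None of the 11 tested subunits of the DNA polymerases and primase passed with edgeR, with the DESeq2 Wald test or with any 1 library left out. Pole was below the filter. It was called without fed replicate 3, with no filter on low counts and with the most abundant genes left out. Where a filter was used, Pole passed it only through fed libraries, so those calls are a description. Of the 55 genes, 49 passed the filter on low counts and were tested; 7 were lower in starved liver, 0 were higher and 42 did not pass (quasi-likelihood F test of edgeR, with p adjusted over all tested genes by Benjamini-Hochberg and called under 0.05). Over all 13338 tested genes, 2.98% were called lower and 2.18% higher. Of the 49, 19 had an unadjusted p under 0.05 with edgeR, against 2924 of all 13338 tested genes. With the DESeq2 Wald test 15 of the 49 were called lower and 1 higher, against 7.14% and 5.26% of all genes by that test. With limma and quality weights 12 were called lower and 2 higher, against 8.07% and 7.13% of all genes.

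The filter asked for about 0.755 unscaled CPM in 3 libraries, and Mcm6, cdc45, TK1, rrm1 and a pair of rrm2 genes passed it only through the fed libraries, as did 1.12% of all tested genes. A gene that passes in this way is bound to differ between the groups, so the counts over tested members are given as a description. Over all 55 members, filtered or not, every starved library lay below every fed library for 19 genes and above for 4, or 34.5% and 7.27%. The same held for 12.2% and 12.3% of all genes in the table. Members were chosen with earlier results of these data known, so these shares too are a description. RNA of whole liver mixes all its cells, so fewer dividing cells and less RNA per cell cannot be told apart.

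**Figure D1:**
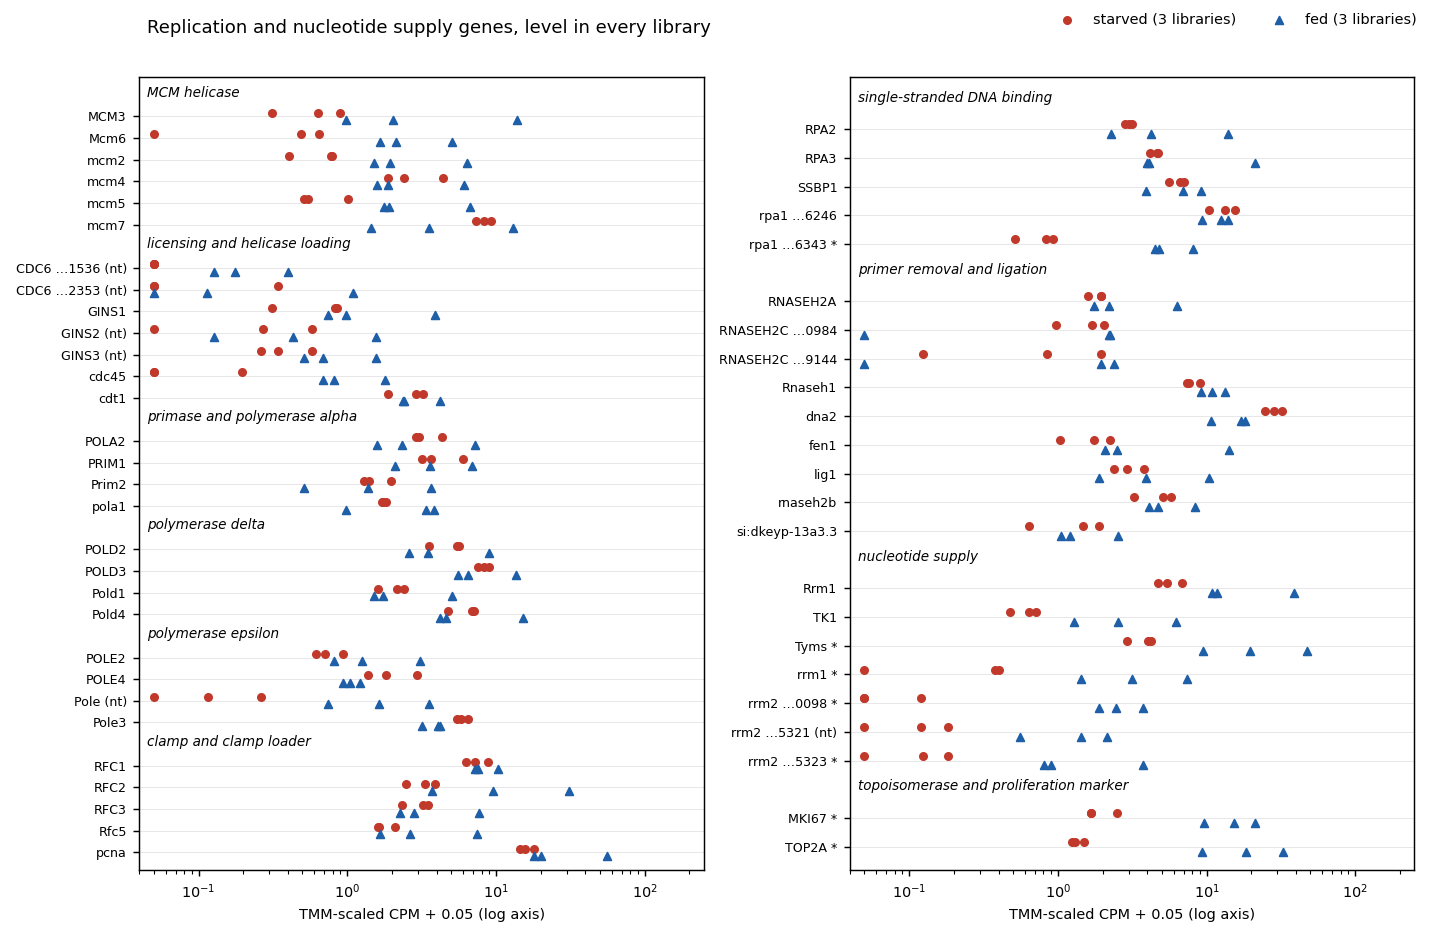
Level of 53 of the 55 genes in every library, as TMM-scaled CPM plus 0.05 on a log axis, grouped by role; circles are starved and triangles fed libraries, an asterisk marks a gene called at adjusted p under 0.05, nt a gene not tested, and 4 digits are the end of the gene number where a symbol occurs more than once. TOP2A, MKI67, Tyms and the rrm2 genes show separate groups, while the polymerase delta subunits overlap and the fed triangle farthest to the right is fed replicate 1 for most genes.

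Fed replicate 1 held the highest level of 48 of the 55 genes, whereas it held the highest level of 31.6% of all tested genes. The members summed to 239, 235 and 254 CPM in the starved libraries and to 678, 267 and 224 CPM in fed replicates 1, 2 and 3. The sum in fed replicate 3 was thus below all starved libraries, and that in fed replicate 1 was the highest by far. The median log2 fold change of the tested members, starved minus fed, was -0.66 with all 6 libraries and -0.11 without fed replicate 1; over all tested genes it was -0.03 with all 6. Without that library 6 of 49 tested members were lower and 3 higher, against 6.5% and 5.81% of all genes. Without starved replicate 1, 1 of 51 tested members was lower and 0 were higher, against 0.356% and 0.385% of all genes. Without fed replicate 3, 9 of 51 were lower and 0 higher, against 2.25% and 1.14%. With genes of the same symbol summed, 4 of 44 were lower and 0 higher, against 2.94% and 2.16%. Among these 4, the sum of the rrm2 genes passed the filter only through the fed libraries.

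TOP2A encodes topoisomerase II alpha, which untangles replicated DNA, and MKI67 encodes Ki-67, a coat protein of mitotic chromosomes used as a proliferation marker. TOP2A had 1.20, 1.45 and 1.25 CPM in the starved libraries, against 32.5, 18.5 and 9.24 CPM in the fed libraries. It was 15.2-fold lower in starved liver (log2 fold change -3.93, SE 0.49; edgeR adjusted p = 0.00643). The groups were far apart, and the starved libraries lay within a narrow range while the fed ones spread over more than 3-fold.

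MKI67 had 1.63, 2.44 and 1.62 CPM in the starved libraries, against 21.1, 15.3 and 9.62 CPM in the fed libraries. It was 8.04-fold lower (log2 fold change -3.01, SE 0.38; edgeR adjusted p = 0.00648). Its fed libraries followed the same order as those of TOP2A, and both genes stayed called without fed replicate 1, at -3.41 for TOP2A and -2.72 for MKI67 on the log2 scale (edgeR adjusted p = 0.00354 and 0.00449). Both calls ended without starved replicate 1 alone (edgeR adjusted p = 0.0537 and 0.055).

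Ribonucleotide reductase turns ribonucleotides into deoxynucleotides; RRM1 is its large catalytic subunit and RRM2 the small subunit that carries the radical. The table holds 3 genes named rrm2, with coding lengths of 1161, 1167 and 1161 bases. The gene numbered 10000098 had 1 count in starved replicate 1 and 0 in the other starved libraries, against 32, 38 and 24 counts in the fed libraries. The ratio of fed over starved by counts was 108 (95% exact interval 18.9 to 4310, counting error only; edgeR adjusted p = 0.00687). It was the 1 member called under every alternative that tested single genes (adjusted p up to 0.0494). This gene passed the filter only through the fed libraries and was bound to differ, so its calls are a description.

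The rrm2 gene numbered 10005323 had 0, 2 and 1 counts in the starved libraries, against 32, 12 and 11 counts in the fed libraries. The fed level was 21.0 times the starved level by counts (95% exact interval 6.83 to 105; edgeR adjusted p = 0.0463). This call was at the edge: it ended when any 1 library was left out (edgeR adjusted p up to 0.172). The gene also passed the filter only through the fed libraries. The third rrm2 gene, 10005321, had 1, 2 and 0 counts in starved and 18, 8 and 18 counts in fed libraries and was not tested, a ratio of 16.8 by counts (interval 5.40 to 84.8). Counting may have split reads between these near-equal genes, which is uncertain without their sequences. With the 3 summed, starved liver had 2, 4 and 1 counts and fed liver 82, 58 and 53 counts, and the sum fell (log2 fold change -5.06; edgeR adjusted p = 0.00633). The sum, too, passed the filter only through the fed libraries and was bound to differ, so its call is a description.

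Of the RRM1 genes, the one listed as rrm1 had 0.354, 0.329 and 0 CPM in the starved libraries, against 7.31, 3.11 and 1.39 CPM in the fed libraries. It was 16.2-fold lower (log2 fold change -4.01, SE 0.90; edgeR adjusted p = 0.0428), and the call was lost on leaving out any of starved replicates 1 to 3 or fed replicates 1 and 2 (edgeR adjusted p up to 0.142). The one listed as Rrm1 had 6.80, 4.68 and 5.36 CPM in starved and 38.7, 11.7 and 10.9 CPM in fed libraries and missed the threshold (log2 fold change -1.85, SE 0.51; edgeR adjusted p = 0.0798). It was called on leaving out fed replicate 1 (log2 fold change -1.01; edgeR adjusted p = 0.029). The DESeq2 Wald test and limma with quality weights called Rrm1 as well, while edgeR without any other 1 library did not. In both genes the starved libraries lay below all fed ones. The gene listed as rrm1 passed the filter only through the fed libraries. Per coding length Rrm1 was the more abundant gene, at means of 4.37 FPKM in starved and 13.8 FPKM in fed liver. Those of rrm1 were 0.103 and 1.5 FPKM. The coding lengths were 1308 bases for Rrm1 and 2361 bases for rrm1, and whether each is a complete gene was not checked. Summed, the RRM1 genes did not pass (log2 fold change -2.05; edgeR adjusted p = 0.0598).

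Tyms, thymidylate synthase, makes the thymidine nucleotide from its uridine precursor. It had 3.97, 4.15 and 2.86 CPM in the starved libraries, against 47.3, 19.5 and 9.47 CPM in the fed libraries. It was 6.89-fold lower (log2 fold change -2.79, SE 0.56; edgeR adjusted p = 0.0296). Leaving out fed replicate 1 kept the call (log2 fold change -1.99; edgeR adjusted p = 0.0145), as did leaving out fed replicate 3; it ended without fed replicate 2 or any 1 starved library (edgeR adjusted p up to 0.139). With limma-voom Tyms, rrm1 and rrm2 10005323 were not called (adjusted p = 0.0587, 0.0917 and 0.0681), nor were rrm1 and rrm2 10005323 with limma on log2(FPKM + 1) (adjusted p = 0.0508 and 0.0596).

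TK1, the cytosolic thymidine kinase of dividing cells, had 0.425, 0.659 and 0.587 CPM in the starved libraries, against 6.15, 2.47 and 1.23 CPM in the fed libraries. Its groups did not overlap, and it did not pass (log2 fold change -2.51, 95% interval -3.99 to -1.03; edgeR adjusted p = 0.0652). TK1 was called with the DESeq2 Wald test, with quality weights and without fed replicate 3. It had passed the filter only through the fed libraries. In all, 4 of 8 tested nucleotide supply genes fell, against 2.98% of all tested genes, and 3 of these 4, rrm1 and both rrm2 genes, had passed the filter only through the fed libraries. All starved libraries lay below all fed ones in 7 of the 9 genes, against 12.2% of all genes in the table. These genes were chosen by symbol with earlier results of these data known, so both counts are a description only.

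Replication protein A is a trimer that coats single-stranded DNA, and RPA1 is its large DNA-binding subunit. The rpa1 gene numbered 10016343 had 0.779, 0.461 and 0.881 CPM in the starved libraries, against 8.0, 4.76 and 4.46 CPM in the fed libraries. It was 8.01-fold lower (log2 fold change -3.00, SE 0.43; edgeR adjusted p = 0.0104), also without fed replicate 1 (log2 fold change -2.70; edgeR adjusted p = 0.00789). The call ended without starved replicate 1 or 2 (edgeR adjusted p up to 0.0632).

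The other gene, rpa1 10006246, had 10.4, 13.2 and 15.6 CPM in the starved libraries, against 9.28, 12.4 and 13.8 CPM in the fed libraries. Its groups overlapped throughout, and it did not pass (log2 fold change 0.14, 95% interval -0.47 to 0.76; edgeR adjusted p = 0.792). Of all rpa1 counts, the gene that fell took 6.96%, 3.37% and 5.36% in the starved libraries, against 46.3%, 27.8% and 24.5% in the fed libraries. These shares did not overlap (exact 2-sided permutation test, p = 0.1, the smallest that 3 against 3 can give). For the sum of both genes the log2 fold change was -0.35, which missed the threshold (edgeR adjusted p = 0.428). The pair was singled out after its values were seen.

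For RPA2 and RPA3, the smaller subunits, the log2 fold changes were -1.18 and -1.10, short of the threshold (edgeR adjusted p = 0.302 and 0.352). RPA3 had 4.11, 4.61 and 4.63 CPM in the starved libraries, against 21.0, 3.93 and 4.08 CPM in the fed libraries. Fed replicate 1 alone was high; without it the log2 fold changes of RPA2 and RPA3 were -0.14 and 0.15. SSBP1, which binds single-stranded DNA in mitochondria, had a log2 fold change of -0.05 (95% interval -0.86 to 0.77).

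**Figure D2:**
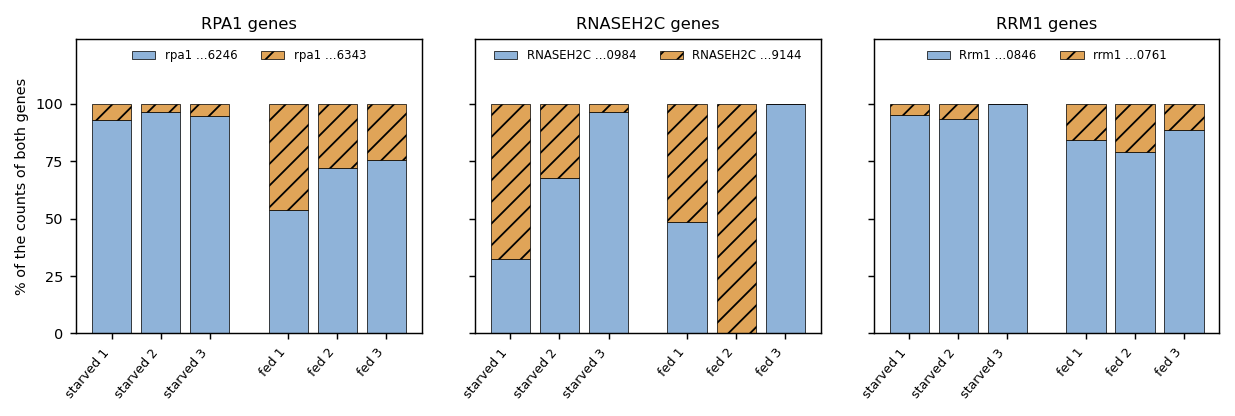
Share of the counts of both genes of a symbol that each gene took, in percent, in starved libraries 1 to 3 and fed libraries 1 to 3, for RPA1, RNASEH2C and RRM1. The hatched rpa1 gene took 3.37% to 6.96% in starved and 24.5% to 46.3% in fed libraries, while the RNASEH2C shares ran from 0% to 100% within the fed group.

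The MCM2 to MCM7 proteins form the ring of the replicative helicase in equal numbers. In 4 of the 6 genes every starved library lay below every fed library. The same held for 12.2% of all genes in the table and 15.5% of all tested genes. None of the 6 passed with edgeR and all libraries, and Mcm6 had passed the filter only through the fed libraries. By edgeR 4 of the 6 had an unadjusted p under 0.05, against 2924 of all 13338 tested genes. MCM3 had 0.850, 0.264 and 0.587 CPM in the starved libraries, against 13.8, 1.97 and 0.924 CPM in the fed libraries. Mcm6 had 0, 0.593 and 0.441 CPM in starved and 4.99, 2.09 and 1.62 CPM in fed libraries. The fed libraries spread widely, and neither gene passed (log2 fold change -3.25, SE 1.02, and -3.01, SE 0.86; edgeR adjusted p = 0.11 and 0.0878).

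The mcm2 gene had 0.354, 0.725 and 0.734 CPM in the starved libraries, against 6.38, 1.90 and 1.46 CPM in the fed libraries. The mcm5 gene had 0.496, 0.461 and 0.955 CPM in the starved libraries, against 6.61, 1.71 and 1.85 CPM in the fed libraries. Both missed the threshold, at -2.38 and -2.37 on the log2 scale (edgeR adjusted p = 0.0844 and 0.0822). With the DESeq2 Wald test MCM3, Mcm6, mcm2 and mcm5 were all called, with adjusted p from 0.00444 to 0.0104. With edgeR and 1 library left out none of them was (adjusted p from 0.0627 to 0.312). Limma with quality weights called Mcm6 and mcm5 (adjusted p = 0.0397 and 0.0495). Limma on log2(FPKM + 1) called Mcm6 (adjusted p = 0.0496), which had passed the filter only through the fed libraries. Neither called MCM3 or mcm2.

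The remaining subunits did not follow these values. The mcm4 gene had 1.84, 4.35 and 2.35 CPM in starved and 6.03, 1.84 and 1.54 CPM in fed libraries (log2 fold change -0.10, 95% interval -1.46 to 1.26; edgeR adjusted p = 0.938). The mcm7 gene had 8.22, 7.31 and 9.18 CPM in the starved libraries, against 12.9, 3.49 and 1.39 CPM in the fed libraries (log2 fold change 0.51, 95% interval -1.03 to 2.04; edgeR adjusted p = 0.695). Starved mcm7 thus lay between fed replicate 1 and the other fed libraries, and without fed replicate 1 the gene was called higher in starved liver (log2 fold change 1.73; edgeR adjusted p = 0.0312). Per coding length it was the most abundant MCM gene in starved liver, at a mean of 3.82 FPKM, against 2.33 FPKM in fed liver; the other MCM genes averaged 0.139 to 1.15 FPKM in starved and 1.05 to 1.85 FPKM in fed liver.

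Several genes that load and start the helicase had few counts. The cdc45 gene had 0, 0 and 2 counts in the starved libraries, against 15, 10 and 10 counts in the fed libraries, a ratio of fed over starved of 20.1 (95% exact interval 5.16 to 172). Its groups did not overlap, and it did not pass (edgeR adjusted p = 0.0545). It was called with the DESeq2 Wald test, limma-voom, limma on log2(FPKM + 0.1) and quality weights (adjusted p = 0.00976, 0.0417, 0.0275 and 0.0137), and with edgeR and 1 library left out it was not (adjusted p from 0.0774 to 0.21). The cdc45 gene had passed the filter only through the fed libraries and was bound to differ, so these calls are a description. The CDC6 gene numbered 10001536 had no starved count and 3, 2 and 1 counts in the fed libraries, at least 2.3-fold lower in starved liver, taking 3 counts over the 3 starved libraries as the floor. CDC6 10002353 had 0, 0 and 4 counts in starved and 9, 1 and 0 counts in fed libraries.

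Both CDC6 genes, GINS2 and GINS3 were below the filter. With no filter they were tested and did not pass (edgeR adjusted p = 0.246 for CDC6 10001536, 0.628 for CDC6 10002353, 0.627 for GINS2 and 0.444 for GINS3). GINS1, a further subunit of that complex, had 0.779, 0.264 and 0.808 CPM in the starved libraries, against 3.83, 0.697 and 0.924 CPM in the fed libraries (log2 fold change -1.5, 95% interval -3.27 to 0.28; edgeR adjusted p = 0.301). Unlike cdc45, cdt1 had overlapping groups, at 1.84, 3.16 and 2.86 CPM in starved and 4.18, 2.35 and 2.31 CPM in fed libraries (log2 fold change -0.15, 95% interval -1.06 to 0.76; edgeR adjusted p = 0.858).

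Of the 12 polymerase and primase genes, 11 were tested and 0 passed, with a median log2 fold change of -0.09. By edgeR 1 of the 11 had an unadjusted p under 0.05, against 2924 of all 13338 tested genes. The exception by level was Pole, the catalytic subunit of the leading-strand polymerase epsilon, which was not tested. It had 3, 1 and 0 counts in the starved libraries, against 30, 25 and 9 counts in the fed libraries. Its groups did not overlap, and it passed with no filter on low counts, without fed replicate 3 and with the most abundant genes left out (lowest adjusted p 0.0338, highest 0.185 over its alternatives).

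The other subunits of polymerase epsilon did not all share the direction of Pole. Pole3 and POLE4, small histone-fold subunits, had log2 fold changes of 0.65 and 0.98, with all starved libraries above all fed ones, and missed the threshold (edgeR adjusted p = 0.228 and 0.254). Pole3 had 5.81, 5.40 and 6.46 CPM in the starved libraries, against 4.18, 3.11 and 4.0 CPM in the fed libraries. POLE2 went the same way as Pole, with a log2 fold change of -1.20 and overlapping groups.

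The catalytic subunits of the other polymerases did not pass. Pold1, of the lagging-strand polymerase delta, had 1.56, 2.11 and 2.35 CPM in the starved libraries, against 4.99, 1.46 and 1.69 CPM in the fed libraries (log2 fold change -0.40, 95% interval -1.61 to 0.81; edgeR adjusted p = 0.695). The pola1 gene, of polymerase alpha, had 1.70, 1.65 and 1.76 CPM in starved and 3.36, 3.80 and 0.924 CPM in fed libraries (log2 fold change -0.66, 95% interval -1.86 to 0.54; edgeR adjusted p = 0.504). The accessory subunits POLD2, POLD3, Pold4, POLA2, PRIM1 and Prim2 had log2 fold changes from -0.34 to 0.06, and all of them had groups that overlapped.

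Pold4, the smallest delta subunit at a coding length of 309 bases, had means per coding length of 20.2 FPKM in starved and 22.8 FPKM in fed liver. Without fed replicate 1 the median log2 fold change of the 11 tested genes was 0.61, and 0 passed. The sums over all 12 genes were 38.6, 42.6 and 41.0 CPM in the starved libraries, against 75.6, 30.8 and 28.1 CPM in fed replicates 1, 2 and 3.

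**Figure D3:**
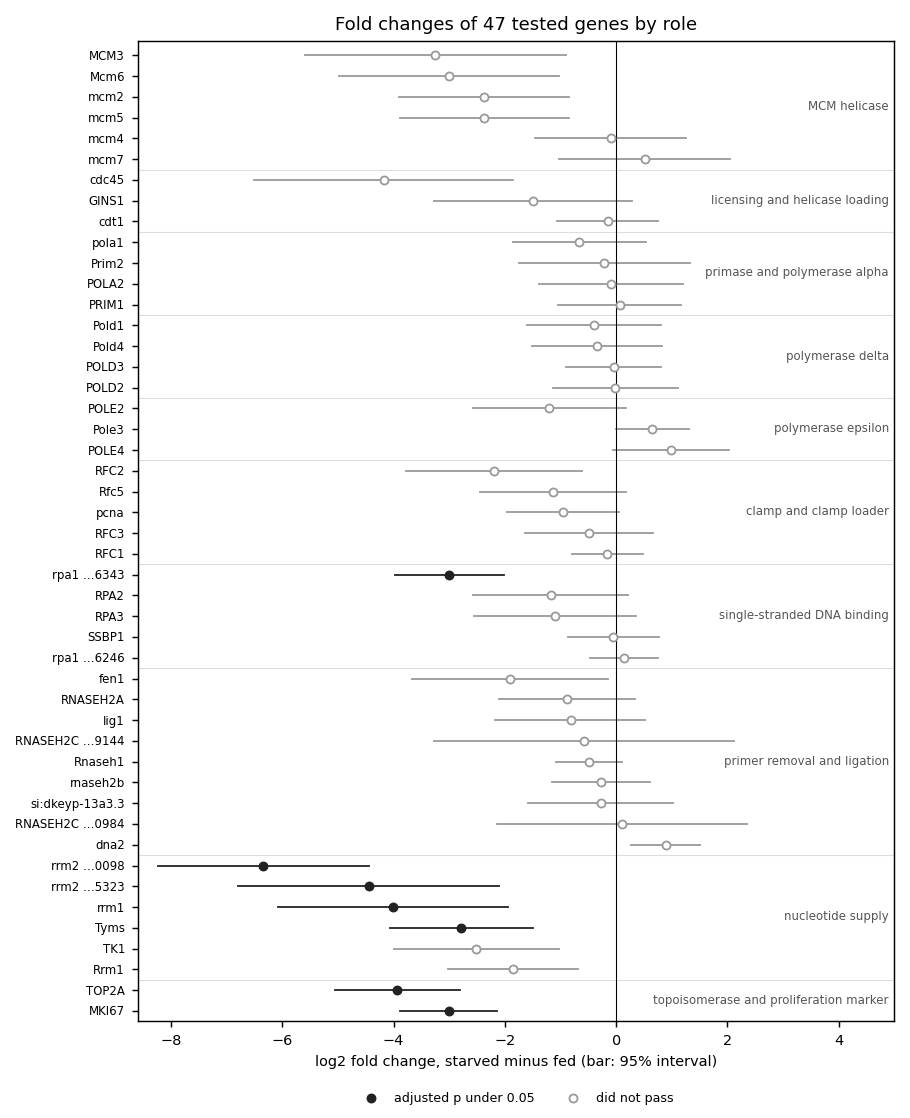
Log2 fold change, starved minus fed, of 47 of the 49 tested genes with 95% intervals, grouped by role; filled points passed at adjusted p under 0.05 and open points did not. The 7 filled points run from -6.34 for rrm2 10000098 to -2.79 for Tyms, and the polymerase subunits lie between -1.20 and 0.98.

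The sliding clamp pcna, which tethers polymerases to DNA in replication and repair, had means per coding length of 17.9 FPKM in starved and 30.9 FPKM in fed liver. It had 18.1, 14.5 and 15.7 CPM in the starved libraries, against 56.2, 18.1 and 19.9 CPM in the fed libraries. Every starved library lay below every fed one by a small margin, and it did not pass (log2 fold change -0.96, 95% interval -1.96 to 0.05; edgeR adjusted p = 0.248). Without fed replicate 1 its log2 fold change was -0.24.

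RFC subunits load the clamp. RFC2 had 3.82, 2.44 and 3.3 CPM in the starved libraries, against 31.0, 9.45 and 3.69 CPM in the fed libraries (log2 fold change -2.19, SE 0.69; edgeR adjusted p = 0.111). Fed replicate 3 overlapped the starved libraries, and without it RFC2 was called. RFC1, RFC3 and Rfc5 had log2 fold changes from -1.13 to -0.16 and overlapping groups.

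Among the enzymes that remove primers and join fragments, 0 of 9 tested genes passed. The flap endonuclease fen1 had 2.20, 0.988 and 1.69 CPM in the starved libraries, against 14.1, 2.03 and 2.46 CPM in the fed libraries (log2 fold change -1.90, 95% interval -3.67 to -0.14; edgeR adjusted p = 0.197). DNA ligase 1, lig1, had 2.34, 3.76 and 2.86 CPM in starved and 10.4, 3.87 and 1.85 CPM in fed libraries (log2 fold change -0.82, SE 0.59; edgeR adjusted p = 0.451). In both genes fed replicate 1 was high and the other fed libraries lay near the starved ones. The gene si:dkeyp-13a3.3, annotated as a probable flap endonuclease homolog, had a log2 fold change of -0.28 with overlapping groups.

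The helicase and nuclease dna2, which trims long flaps and also acts in mitochondria, ran the other way. It had 28.3, 24.7 and 32.2 CPM in the starved libraries, against 10.7, 17.1 and 18.2 CPM in the fed libraries, with all starved libraries above all fed ones. It did not pass with all 6 libraries (log2 fold change 0.89, SE 0.27; edgeR adjusted p = 0.103), and was called higher without fed replicate 1 (log2 fold change 0.69; edgeR adjusted p = 0.0476) and with the DESeq2 Wald test. Fed replicate 1, which was highest for most members, was lowest for this gene.

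RNase H2 removes ribonucleotides from DNA. Neither RNASEH2A nor rnaseh2b passed, at log2 fold changes of -0.88 and -0.28. The table has 2 genes named RNASEH2C, each with a coding length of 438 bases, whose counts varied against each other from library to library. RNASEH2C 10000984 had 13, 25 and 27 counts in the starved libraries, against 19, 0 and 28 counts in the fed libraries. RNASEH2C 10009144 had 27, 12 and 1 counts in starved and 20, 30 and 0 counts in fed libraries.

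Each RNASEH2C gene was thus at 0 in a fed library where the other was not, and the shares did not follow feeding (exact 2-sided permutation test, p = 0.7). Their sum varied far less, at 40, 37 and 28 counts in the starved libraries, against 39, 30 and 28 counts in the fed libraries (log2 fold change -0.20; edgeR adjusted p = 0.814). The value of either gene alone is therefore uncertain. Rnaseh1, which also acts in mitochondria, had a log2 fold change of -0.48 (95% interval -1.08 to 0.11), all starved libraries below all fed ones.

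Fold changes with and without fed replicate 1 show which members rest on that library. Of the 7 called genes, rrm2 10000098 moved least, with -6.34 with it and -6.07 without it on the log2 scale, and rrm2 10005323 moved most, with -4.44 and -3.38. Among genes not called, MCM3 had -3.25 and -1.36, and fen1 had -1.90 and -0.47. The calls of rrm1 and rrm2 10005323 ended without it (edgeR adjusted p = 0.0513 and 0.056), at log2 fold changes of -3.25 and -3.38.

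**Figure D4:**
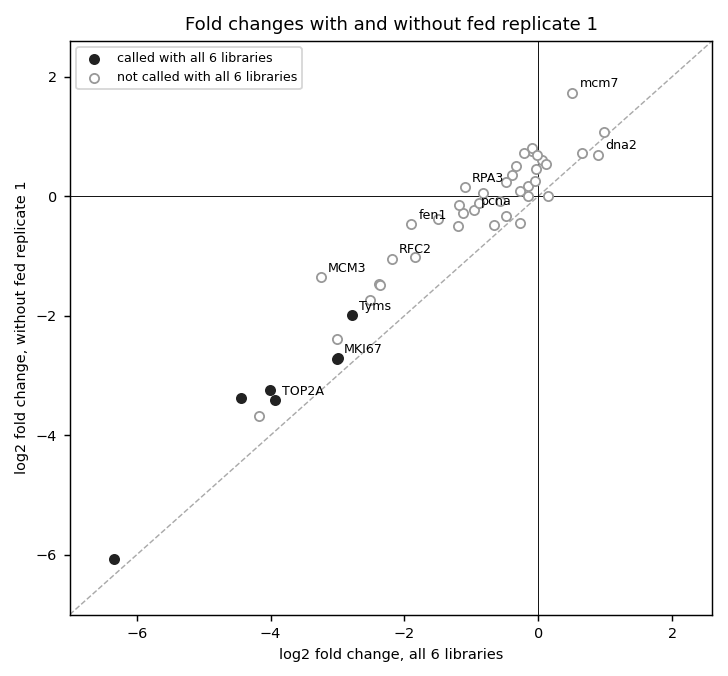
Log2 fold change, starved minus fed, of the same 47 genes with all 6 libraries (horizontal) and without fed replicate 1 (vertical), with a dashed line of equal values; filled points were called with all 6 libraries. Nearly all points lie above the line, such as MCM3 at -3.25 horizontally and -1.36 vertically.

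The members can also be split by their annotation. Of 21 members that also carry an entry for nucleotide excision, mismatch or base excision repair or homologous recombination, 20 were tested and 1 fell, rpa1 10016343, with a median log2 fold change of -0.44. Of 34 without such an entry, 29 were tested and 6 fell, with a median of -0.88. All members chosen by symbol are without a repair entry, and the 6 that fell were all chosen by symbol. The repair split therefore cannot be told apart from how members were chosen, and the difference between these sets was not tested. Split by how members were chosen, 1 of 36 tested genes with the replication entry fell, 2.78% against 2.98% of all genes, and 6 of 13 chosen by symbol fell.

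Of the 55 genes, 54 had a value in the authors' deposited table and 17 were marked there as lower in starved liver, against 5.0% of its 16166 genes marked lower; 0 were marked higher, against 3.41%. Every marked gene in the authors' deposited table had a fold of at least 2 and a q-value of at most 0.0499. Besides the genes named above as called, the authors' deposited table marked the third rrm2 gene, Rrm1, TK1, MCM3, Mcm6, mcm2, mcm5, cdc45, Pole and RFC2. Of these 10 genes, the authors' deposited table gives the smallest fold, 3.62 as fed over starved, for Rrm1 and the largest, 21.7, for cdc45.

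Genes around the pathway were read from lists matched by symbol and chosen with earlier results of these data known. Over all tested genes, edgeR called 2.98% lower and 2.18% higher. In a list of S-phase entry genes, 3 of 32 tested genes fell and 1 rose, with a median log2 fold change of -0.18. CDKN1C, an inhibitor of cyclin-dependent kinases, had 18.9, 15.9 and 16.8 CPM in the starved libraries, against 2.32, 1.39 and 1.85 CPM in the fed libraries, and rose (log2 fold change 3.23, SE 0.30; edgeR adjusted p = 0.00292). CCNA2, cyclin A2, had 0.567, 0.329 and 0.220 CPM in starved and 8.12, 5.39 and 1.85 CPM in fed libraries, and fell (log2 fold change -3.74, SE 0.65; edgeR adjusted p = 0.0199). CCNA2 passed the filter only through the fed libraries and was bound to differ, so its call is a description.

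The G1 cyclin gene ccnd1 fell too (log2 fold change -1.69, SE 0.29; edgeR adjusted p = 0.0193), and the third to fall was Foxm1, named after its value was seen, a transcription factor of dividing cells (log2 fold change -3.47; edgeR adjusted p = 0.0238). The calls of CCNA2, ccnd1 and Foxm1 each ended without fed replicate 2 or any 1 starved library (edgeR adjusted p up to 0.0999, 0.108 and 0.123), so that 0 genes of the list fell then. That of CDKN1C held under every alternative run, up to 0.0377.

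The mitosis list had the lowest median of the 8 lists. Of 37 tested genes 28 fell, with a median log2 fold change of -3.48, and PRC1, tpx2 and CKAP2, which act on the mitotic spindle, had the smallest p. PRC1 10019589 had 0.0708, 0.0659 and 0.147 CPM in the starved libraries, against 6.61, 6.09 and 2.54 CPM in the fed libraries (log2 fold change -5.62, SE 0.62; edgeR adjusted p = 0.00467). PRC1 10019589 passed the filter only through the fed libraries and was bound to differ, so its call is a description. How many of the 28 passed in this way was not counted. Tested or not, every starved library lay below every fed one in 35 of the 42 listed genes and above in 0. Of all genes in the table, 12.2% lay below and 12.3% above. The number of the list that fell was 4, 8 and 9 without starved replicates 1, 2 and 3, and 12 without fed replicate 2. It was 28 without fed replicate 1 and 28 without fed replicate 3. Over all tested genes, 397 were lower with all 6 libraries. That number was 49, 80 and 81 without starved replicates 1, 2 and 3, and 158, 900 and 311 without fed replicates 2, 1 and 3. The difference between this list and the replication genes was not tested.

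Lists for nucleotide supply beyond the members held few calls. Among 38 tested genes of the deoxynucleotide pool and salvage, 0 fell and 1 rose: PNP 10003679, purine nucleoside phosphorylase, had 596, 361 and 463 CPM in the starved libraries, against 50.7, 21.4 and 36.1 CPM in the fed libraries (log2 fold change 3.72, SE 0.43; edgeR adjusted p = 0.0054). Of the other genes of that name, Pnp 10004579 had overlapping groups (log2 fold change 0.33; edgeR adjusted p = 0.609), and PNP 10022010 had 0, 0.461 and 0.441 CPM in starved and 1.51, 1.39 and 2.85 CPM in fed libraries, starved below fed, and missed the threshold (log2 fold change -2.63; edgeR adjusted p = 0.104).

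None of the 16 tested genes of de novo purine and pyrimidine synthesis or the 17 of folate and one-carbon supply passed with edgeR. In these lists 3 and 5 genes had an unadjusted p under 0.05 with edgeR, against 2924 of all 13338 tested genes. With the DESeq2 Wald test 2 and 4 passed, while it called 7.14% of all genes lower and 5.26% higher. The lowest adjusted p of the synthesis list was that of impdh2, which commits purines to guanine nucleotides (log2 fold change -0.97, edgeR adjusted p = 0.0816). In the folate list it was that of MTHFS, a folate enzyme (log2 fold change -1.27, edgeR adjusted p = 0.0535). Without fed replicate 1, 2 of 17 tested synthesis genes were lower and 2 higher, against 6.5% and 5.81% of all genes. Tested or not, every starved library lay below every fed one in 1 of 17 synthesis and 7 of 22 folate genes. Every starved library lay above in 2 and 3 of them. Of all genes in the table, 12.2% lay below and 12.3% above.

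In 3 more lists 0 genes passed with edgeR. These were origin licensing and firing (11 tested, 1 with an unadjusted p under 0.05, 0 with the DESeq2 Wald test), chromatin assembly (12 tested, 2 and 2) and the S-phase checkpoint (14 tested, 4 and 2). Of all 13338 tested genes, 2924 had an unadjusted p under 0.05 with edgeR, and the DESeq2 Wald test called 7.14% lower and 5.26% higher. Tested or not, every starved library lay below every fed one in 5 of 20 origin, 9 of 18 chromatin assembly and 2 of 16 checkpoint genes. Every starved library lay above in 1, 2 and 3 of them. Of all genes in the table, 12.2% lay below and 12.3% above. The lowest adjusted p of these 3 lists was that of chaf1a, a histone chaperone of the replication fork (log2 fold change -1.92, edgeR adjusted p = 0.0558). The others were clspn, a fork checkpoint adaptor, at a log2 fold change of -1.77 (edgeR adjusted p = 0.139), and WEE1, a kinase that holds back mitosis, at -0.78 (edgeR adjusted p = 0.0985).

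Markers of other liver cells were read beside these results. Of the stellate cell and fibroblast markers, 4 of 7 tested genes fell, against 2.98% of all tested genes. The 11 matched genes summed to 104 to 135 CPM in starved and 287 to 424 CPM in fed libraries. Among them col1a2, a collagen chain, had 17.8, 23.7 and 17.5 CPM in the starved libraries, against 148, 110 and 90.6 CPM in the fed libraries (log2 fold change -2.56, edgeR adjusted p = 0.00545). These markers did not all go this way, as 2 of the 7 had positive log2 fold changes, up to 1.37, and did not pass. Without fed replicate 1, 4 of 8 tested markers of this list were lower and 1 higher, against 6.5% and 5.81% of all genes. In the endothelial, red cell, B cell, T cell, macrophage, neutrophil, biliary and pancreatic lists 0 tested genes passed, and 1 of 16 tested hepatocyte markers, AHSG, fell.

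The summed levels of the red cell list, 189 to 1005 CPM in starved and 473 to 1338 CPM in fed libraries, overlapped between the groups. So did those of the macrophage list, at 236 to 287 CPM in starved and 216 to 309 CPM in fed libraries, and of the B cell list, at 7.05 to 9.36 CPM in starved and 6.91 to 14.7 CPM in fed libraries. The T cell list summed to 3.33 to 6.13 CPM in starved and 2.32 to 3.0 CPM in fed libraries, without overlap. In each of its 4 genes alone the groups overlapped. The biliary list summed to 394 to 674 CPM in starved and 698 to 1075 CPM in fed libraries, without overlap. Its 2 tested genes went opposite ways, at log2 fold changes of -0.66 and 1.25. The endothelial list summed to 123 to 143 CPM in starved and 91.0 to 115 CPM in fed libraries, also without overlap. The neutrophil list, at 26.9 to 39.6 CPM in starved and 17.5 to 27.3 CPM in fed libraries, and the pancreatic list, at 16.6 to 338 CPM in starved and 8.12 to 67.6 CPM in fed libraries, overlapped. None of the matched markers was at 0 in all 6 libraries, and the T cell symbols cd3d, cd3e, cd3g and cd8a and the fibroblast symbols acta2 and col3a1 matched no gene. The part of other cell types in the replication results was not tested.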

How the data were processed

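Liver RNA was poly(A)-selected, prepared as strand-marked paired-end libraries and sequenced, per the labels' protocols. The submitters' processing notes name the tools Trimmomatic, HISAT2, Cufflinks and HTSeq. Their versions, the genome build and any use of strand in counting are not given in the sources used here, so overlapping or near-identical genes may share reads. Counts deposited by the authors are raw whole numbers for each gene. FPKM values deposited by the authors are those counts scaled to the column total and to coding length. The comparison deposited by the authors holds a fold change (a ratio, starved to fed) and a q-value, from an unnamed test. Its fold had the same sign as the FPKM ratio of the groups in 96.8% of genes. Base quality and mapping classes come as percent or read numbers, per the file headers.

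Groups were taken from sample titles. Replicate counts differed far beyond sampling noise (chi-square 33.6 to 149 for each degree of freedom), so every library was used once. The count model was edgeR 4.0.16 under R 4.3.3: default filterByExpr, TMM scaling, robust quasi-likelihood F test of starved minus fed, Benjamini-Hochberg adjustment over every tested gene, calls under an adjusted p of 0.05. Standard errors are the fold change over the square root of F; intervals are 95%. A group with 1 to 3 counts is given as a ratio of scaled counts with an exact interval, and one with 0 counts as a bound against 3 counts over the group; both cover counting error only. The code was first tested on simulated counts.

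Members and lists were chosen with earlier results of these data known. For 2 members, which are included in all counts, sums and medians over the members, single values are not reported here. Full statistics go to called members, MCM subunits, pcna, catalytic polymerase subunits and the symbols of the rule, and from each list to at most 3 called genes of smallest p, or to 1 where none was called. List symbols were matched ignoring case and also with a final a or b. Alternatives used DESeq2 1.42.0, limma 3.58.1, other filters and scalings and each library left out; quality weights and summed copies were chosen after seeing the data.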

Additional observations from a re-analysis of the deposited data

How the results depend on the processing

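With all genes, 688 were called; the DESeq2 Wald test called 1655, limma with quality weights 2027 and limma on log2(FPKM + 0.1) 445, and leaving out 1 library gave 102 to 1704. Members called lower were 7, against 15 by Wald test in DESeq2, 12 with quality weights in limma, and 1 to 9 when 1 library was left out, the 1 without starved replicate 1. With copies of one symbol summed, 4 of 44 fell (MKI67, TOP2A, Tyms and RRM2), and the RRM2 sum passed the filter only through the fed libraries. Members called higher were 0, against 1 by Wald test in DESeq2, 2 with quality weights in limma, and 0 to 3 when 1 library was left out. Their median log2 fold change ran from -1.20 to -0.11 when 1 library was left out. Over the values of 47 tested members under the alternatives, 24 calls were lost, 24 were gained, and 651 values stayed on their side of the threshold.

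Calls in the lists with the DESeq2 Wald test were 2 for chromatin assembly, 8 for S-phase entry (against 4), 2 for the checkpoint, 2 for purine and pyrimidine synthesis, 4 for folate supply and 4 for the deoxynucleotide pool (against 1); folate supply also had 1 on log2(FPKM + 1) and 1 on log2(FPKM + 0.1). With 1 library left out the calls ranged from 1 to 7 for S-phase entry, 0 to 2 for the checkpoint, 0 to 4 for purine and pyrimidine synthesis, 0 to 1 for folate supply, 1 to 2 for the deoxynucleotide pool and 4 to 28 for mitosis. Over all genes the DESeq2 Wald test called 7.14% lower and 5.26% higher. Each upper end of these ranges was reached without fed replicate 1, when edgeR called 6.5% of all genes lower and 5.81% higher. Each lower end was reached without starved replicate 1, when it called 0.356% and 0.385%. The cause of the changes in these lists was not tested. No paired analysis was possible because the title codes share only 1 letter between the groups and no numbering. At 11623356 to 14716282 counts per library, 6 members fell below the filter; with no filter all 55 were tested, and Pole and rrm2 10005321 were then called (adjusted p = 0.0338 and 0.0415).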
